A study of Mus musculus with 5 samples.

Results

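The cyclin-dependent kinase inhibitors measured here are 6 genes, Cdkn1a, Cdkn1b, Cdkn1c, Cdkn2a, Cdkn2b and Cdkn2c, chosen by their symbols among the 32285 genes of the deposited matrices; all 6 were found. Kidneys of 5 mice were profiled by single-cell RNA sequencing after ischemia-reperfusion injury (IRI), 3 mice at day 10 (mice 3, 4 and 5) and 2 mice at 48 h (mice 1 and 2). The labels give no strain, sex or age, every mouse had been injured, and no uninjured kidney is among the samples, so a change is between a late and an early time after injury. Each mouse is 1 library with 3720 to 5912 cells and 45887945 to 78351722 unique molecular identifiers (UMIs, counted transcript molecules), and libraries shared at most 10 cell barcodes.

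These inhibitors bind and block the cyclin-dependent kinases that drive a cell through its division cycle. Cdkn1a (p21), Cdkn1b (p27) and Cdkn1c (p57) form the Cip/Kip family, which binds complexes of several cyclins and kinases. Cdkn2a (p16), Cdkn2b (p15) and Cdkn2c (p18) belong to the INK4 family, which binds Cdk4 and Cdk6 and so keeps the retinoblastoma protein in its growth-blocking form. Cdkn1a is a classical target of the tumour suppressor p53, Cdkn2a and Cdkn2b are widely used markers of cellular senescence, and Cdkn1c is an imprinted gene of differentiated podocytes.

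Cdkn2a and Cdkn2b are neighbours on the reverse strand of chromosome 4 (GRCm38), at chr4:89274471-89294653 and chr4:89306299-89311039, with 11645 bases between them. Cdkn2a has an outer start at position 89294653, used by the transcript for p19Arf, and an inner start at 89282192, used by that for p16Ink4a. The annotated transcripts share 575 exonic bases, of 852 in the inner and 895 in the outer transcript, and the 3′-end counts used here cannot tell p16Ink4a from p19Arf. Cdkn2c lies elsewhere on the same chromosome (chr4:109660876-109667189, reverse strand), Cdkn1b at chr6:134920401-134925513 (forward), Cdkn1c at chr7:143458339-143461050 (reverse) and Cdkn1a at chr17:29090976-29100727 (forward).

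The start windows of the genes that moved together in the descending thin limb, described in the paragraphs on that segment, are shown because transcription of Cdkn2a, Cdkn2b and Cdkn1a begins in them. They are RefSeq promoter windows of 300 bases (250 before and 50 after a start, GRCm38.p6), written 5′ to 3′ on the strand of the gene. Capitals mark the GC box GGGCGG, searched on both strands, in the Cdkn2a and Cdkn2b windows, and the p53 half-site consensus, likewise on both strands, in the window of the upstream start of Cdkn1a.
Cdkn2a outer start, chr4:89294570-89294869, reverse strand: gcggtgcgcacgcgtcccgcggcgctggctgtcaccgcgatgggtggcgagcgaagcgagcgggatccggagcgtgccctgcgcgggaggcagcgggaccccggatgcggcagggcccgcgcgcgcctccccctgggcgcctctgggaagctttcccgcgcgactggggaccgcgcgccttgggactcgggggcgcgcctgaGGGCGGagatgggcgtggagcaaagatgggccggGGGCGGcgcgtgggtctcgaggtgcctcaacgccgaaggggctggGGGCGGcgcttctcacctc
Cdkn2a inner start, chr4:89282143-89282442, reverse strand: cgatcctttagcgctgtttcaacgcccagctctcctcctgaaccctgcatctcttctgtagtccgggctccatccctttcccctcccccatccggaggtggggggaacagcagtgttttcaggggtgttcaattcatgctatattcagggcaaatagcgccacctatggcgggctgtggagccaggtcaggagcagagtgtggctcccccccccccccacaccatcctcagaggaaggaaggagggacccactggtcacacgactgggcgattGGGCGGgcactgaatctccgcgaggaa
Cdkn2b, chr4:89310983-89311282, reverse strand: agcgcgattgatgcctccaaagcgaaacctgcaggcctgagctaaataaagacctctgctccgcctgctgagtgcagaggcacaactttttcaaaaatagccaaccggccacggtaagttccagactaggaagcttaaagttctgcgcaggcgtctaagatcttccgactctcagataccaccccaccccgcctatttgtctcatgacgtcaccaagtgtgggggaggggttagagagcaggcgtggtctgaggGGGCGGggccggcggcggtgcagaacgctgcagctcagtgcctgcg
Cdkn1a upstream start, chr17:29090729-29091028, forward strand: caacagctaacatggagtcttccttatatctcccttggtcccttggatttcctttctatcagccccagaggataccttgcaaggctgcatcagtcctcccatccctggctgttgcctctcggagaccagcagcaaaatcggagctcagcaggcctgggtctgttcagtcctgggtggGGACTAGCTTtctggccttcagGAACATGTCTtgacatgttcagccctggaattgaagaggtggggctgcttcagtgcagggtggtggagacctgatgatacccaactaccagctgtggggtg
The outer Cdkn2a window held 3 GC boxes and a GC content of 77.0%, against 1 GC box and 60.3% in the inner window and 1 GC box and 57.7% in the Cdkn2b window. Over 32817 promoter windows of this length the median GC content was 52.7% and 35.6% held a GC box. The Cdkn1a window of the upstream start held 2 p53 half-sites, and 8.36% of all windows held at least 1. The window of its other, downstream start (from position 29093519), which is not printed, held 0 p53 half-sites and 2 GC boxes. A match to these letters is a description of the sequence and was not tested for binding.

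Levels are given as CPM, counts per 1000000 of the UMIs summed over the cells of a type in a mouse. The cell type labels are those deposited by the authors, made from the same cells, so the order of types is a description with no test. Immune cells were taken by the deposited cluster and named from markers: cluster 0 was macrophage-like, cluster 5 neutrophil-like and cluster 10 T cell-like. An order was made over 17 types with at least 20 cells in every mouse; podocytes and the cells labelled as cycling proximal tubule had fewer in 1 mouse and are given apart, and red blood cells and immune cluster 12 were not used. Over all 23797 cells, Cdkn1a had 23651 UMIs, Cdkn1b 15367, Cdkn1c 10658, Cdkn2c 4446, Cdkn2b 3394 and Cdkn2a 704.

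Cdkn1c was the most restricted of the Cip/Kip members. Podocytes, the filter cells of the glomerulus, had 6125, 6420 and 4513 CPM of Cdkn1c at day 10 (mice 3, 4 and 5) and 9554 and 9279 CPM at 48 h (mice 1 and 2). All 3 day 10 mice were below both 48 h mice. These cells were 0.764% of the day 10 cells and 0.569% of the 48 h cells, yet held 56.5% of all Cdkn1c UMIs at day 10 and 81.0% at 48 h. With every cell thinned to 1000 UMIs, a mean of 91.6 ± 1.35% of day 10 podocytes (SD, n = 3) and 96.8 ± 2.37% of 48 h podocytes (SD, n = 2) had a Cdkn1c UMI. In neutrophil-like cluster 5, a type that should lack the gene, the same share was 0.563% at day 10 and 0.859% at 48 h, at median depths of 2556 to 2706 and 3271.5 to 4831.5 UMIs per cell against 5569 to 8155 and 6800 to 7977 in podocytes. The time difference in podocytes did not pass in a test with a minimum of 10 cells, added after the data were seen (log2 fold change -0.73, SE 0.19, adjusted p = 0.644 in edgeR's quasi-likelihood test with Benjamini-Hochberg adjustment, called QL test below). There, 0.048% of genes passed and 11.9% had lower, non-overlapping CPM. With no filter on low counts Cdkn1c passed (adjusted p = 0.0355). The podocyte markers Nphs1, Podxl, Wt1 and Synpo were detected in these cells in every mouse. Podxl, the most abundant of these, had 5116, 4787 and 4501 CPM at day 10 and 5158 and 5502 CPM at 48 h. Nphs1, which codes for nephrin, had 2276, 2812 and 2091 CPM at day 10 and 1580 and 1809 CPM at 48 h.

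Outside podocytes, Cdkn1c was highest in interstitial cells, at 136 ± 97.8 CPM (SD over 5 mice), above endothelial cells at 41.8 ± 12.3 CPM in 5 of 5 mice. Its spread in interstitial cells was wide at 48 h: the day 10 mice had 118, 82.3 and 154 CPM and the 48 h mice 33.6 and 292 CPM, so the groups overlapped. Every other type averaged below 20 CPM.

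Cdkn1b, the inhibitor that holds resting cells out of the cycle, was the most evenly spread. It was highest in neutrophil-like cluster 5 at 191 ± 29.2 CPM (n = 5 mice), more than in every other type in 5 of 5 mice. The next types, connecting tubule (74.7 ± 12.1 CPM), endothelial cells (74.0 ± 7.26), T cell-like cluster 10 (72.5 ± 14.1) and interstitial cells (72.1 ± 4.96), lay within their spread of each other. The lowest were injured proximal tubule cells (28.6 ± 12.5 CPM) and the Lrp2-positive S2/3 proximal tubule (25.9 ± 3.38 CPM).

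Cdkn1a averaged 222 ± 126 CPM in the descending thin limb, 184 ± 79.2 CPM in the cells labelled TEC and 121 ± 67.3 CPM in macrophage-like cluster 0, with the thin limb above each of the other two in 3 of 5 mice. The mice that decided this order were those of day 10, and the SDs hold both times. The lowest level was that of the S1 proximal tubule, 12.9 ± 6.74 CPM.

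Of the INK4 members, Cdkn2a and Cdkn2b were both highest in the descending thin limb, and Cdkn2c stood apart. Cdkn2a averaged 30.6 ± 29.0 CPM in the descending thin limb, all of it from day 10, and at most 8.01 CPM in any other type. Cdkn2b was highest in the descending thin limb (77.8 ± 38.2 CPM), then in the cells labelled TEC (37.4 ± 23.5), principal cells of the collecting duct (32.0 ± 9.11) and the thick ascending limb (21.4 ± 9.27). Cdkn2c was instead highest in the proximal tubule, at 33.6 ± 8.21 CPM in its Lrp2-negative S2/3 label, 24.6 ± 6.36 in S1 and 21.7 ± 3.98 in Lrp2-positive S2/3, and low in the descending thin limb (2.46 ± 1.31 CPM) and intercalated cells (2.43 ± 1.39). The Lrp2-negative label had a median depth of only 1861.5 to 2406 UMIs per cell. Across the 17 types the log2 levels of Cdkn2a and Cdkn2b had a Pearson r of 0.65, the highest among pairs of members, and those of Cdkn1a and Cdkn2c one of -0.57; types share libraries, so these are descriptions with no p.

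**Figure D1:**
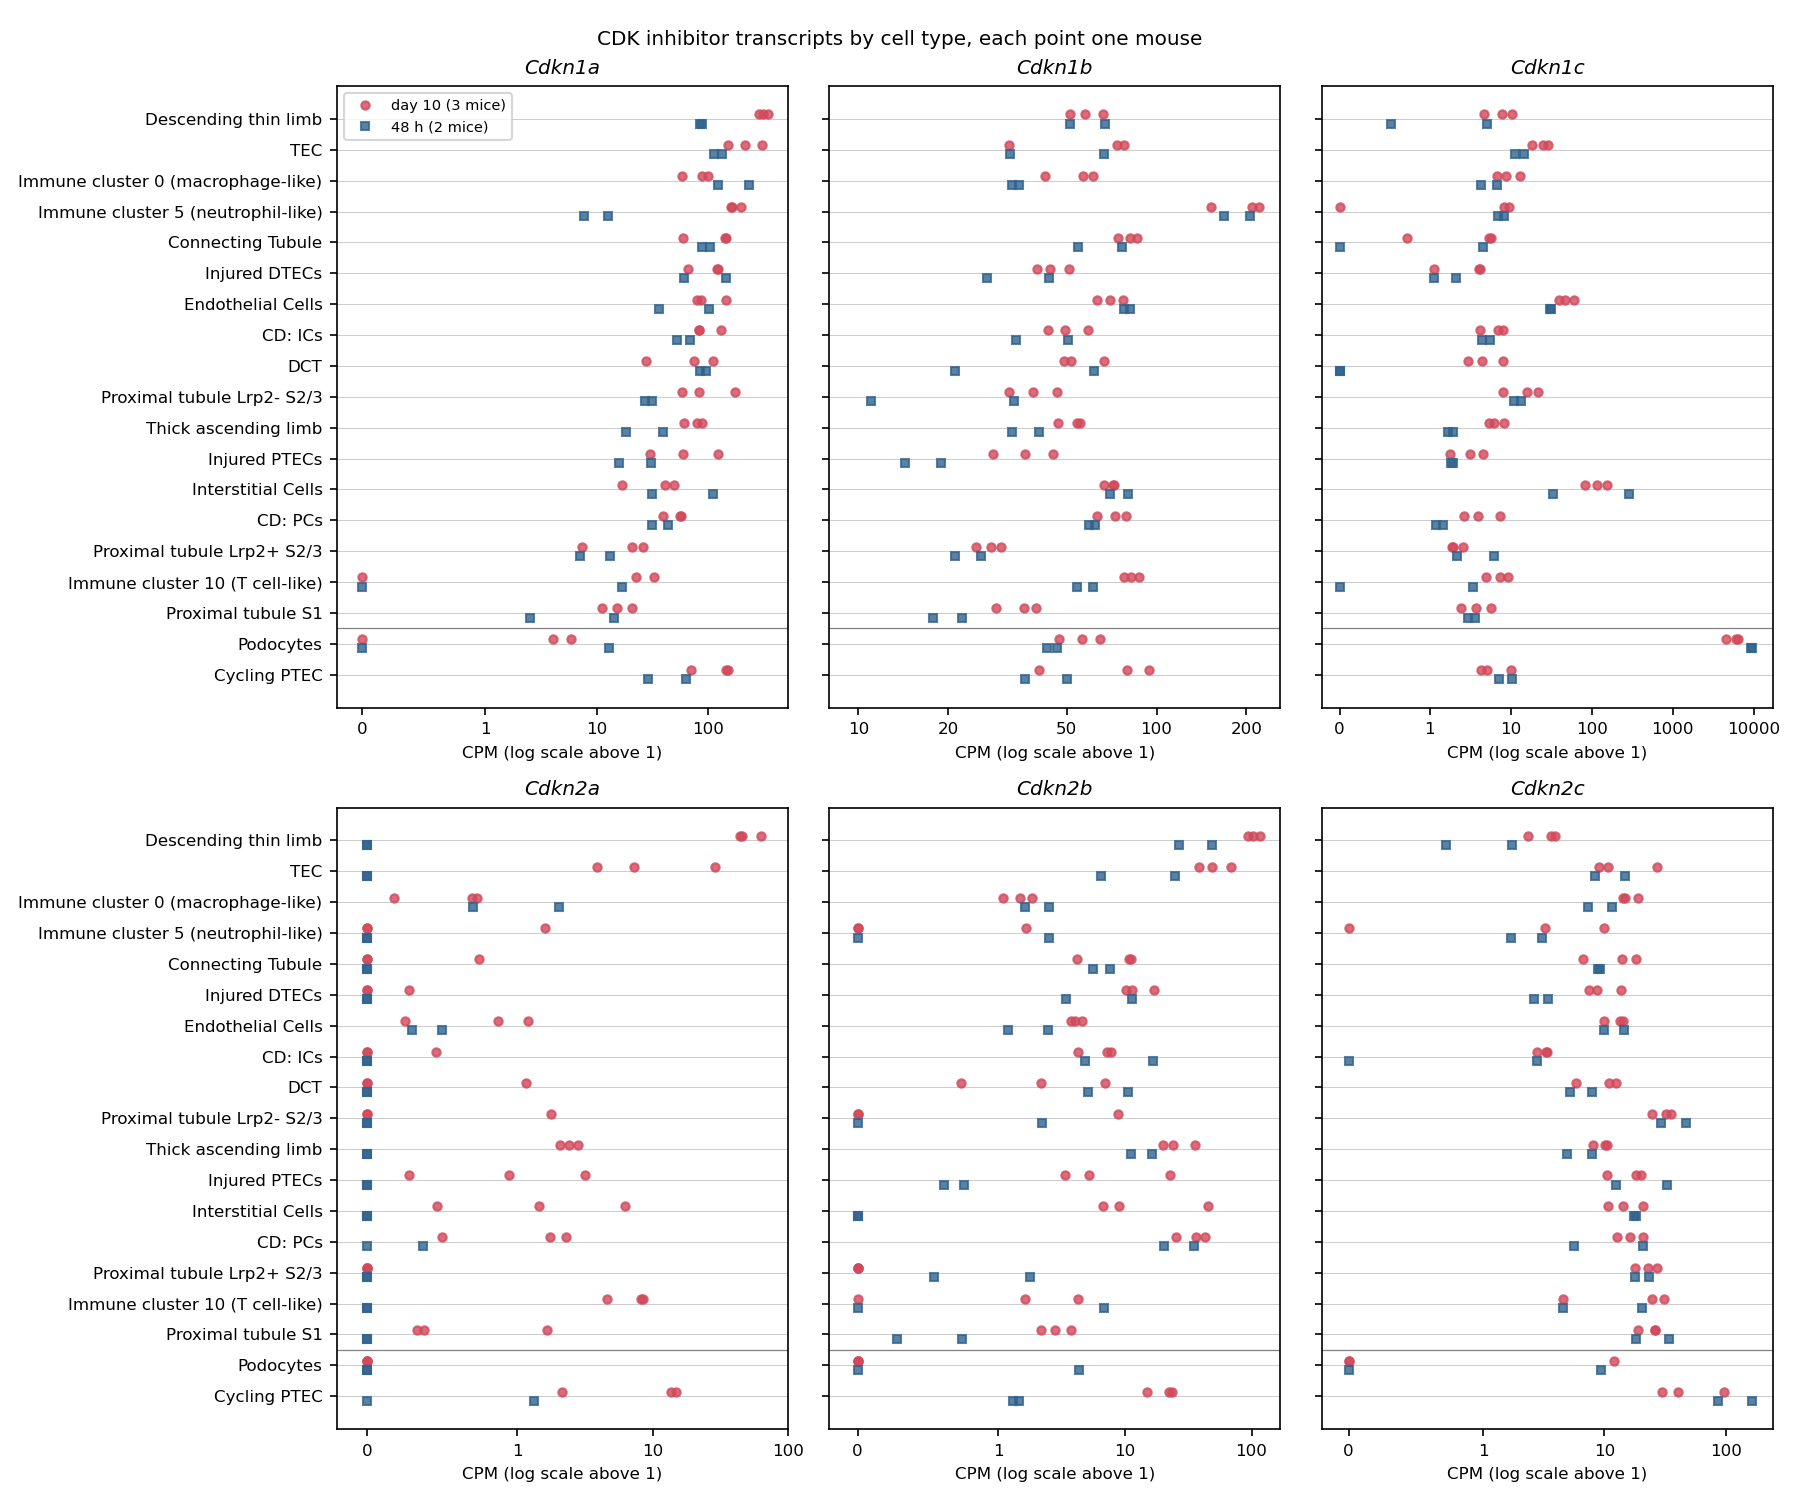
Level of each inhibitor in 17 cell types, with podocytes and cycling proximal tubule cells under the grey line; the horizontal axis is CPM (log scale above 1) and each point is 1 mouse, circles for day 10 above squares for 48 h. Podocytes stand at 4513 to 9554 CPM of Cdkn1c, cluster 5 leads in Cdkn1b, and Cdkn2a is at 0 in both 48 h mice of the descending thin limb.

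Time effects were tested in 18 types (the 17 and the whole immune label), with 3 mice at day 10 and 2 at 48 h. Of 108 pairs of a member and a type, 76 had enough counts to be tested, Cdkn1b in 18 types, Cdkn1a in 17, Cdkn2b in 13, Cdkn1c and Cdkn2c in 12 each and Cdkn2a in 4. Of these tests 9 passed, all higher at day 10, and they fell in the descending thin limb, the thick ascending limb, the immune label and its clusters 0 and 5. Cdkn2a in the thin limb and in the thick ascending limb had no UMI at 48 h. It entered those tests only through its day 10 counts, so its direction there was fixed beforehand. Its calls among the 9 thus add no support. The share of all tested genes that passed was 5.12% in the thin limb, 10.4% in the thick ascending limb, 19.2% in the immune label, 24.1% in cluster 0 and 18.5% in cluster 5. Fold changes use TMM-scaled counts, while CPM are of raw totals: the median gene had a log2 ratio of mean CPM of 0.36 in the thick ascending limb, 0.55 in cluster 5 and 0.46 in injured proximal tubule cells, against 0.05 in the descending thin limb and 0.02 in cluster 0. With DESeq2 size factors in place of TMM 8 tests passed. In these summed libraries fewer cells with the transcript and less transcript per cell cannot be told apart, so shares of cells are given beside the main results.

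In the descending thin limb, the segment that dips into the medulla and lets water leave the tubule, 3 inhibitors rose at day 10 relative to 48 h. Cdkn2a had 43.8, 45.4 and 63.6 CPM in the day 10 mice, and no UMI in either 48 h mouse. In UMIs these were 158, 116 and 197 at day 10, and 0 of 3115947 at 48 h. Cdkn2a UMIs were thus found in the thin limb of all 3 day 10 mice and of neither 48 h mouse. The level was at least 52.8-fold higher when 3 counts over the 48 h group are taken as the floor. The QL test call (adjusted p = 0.000414) adds no support, as only day 10 counts brought Cdkn2a past the filter. Of the 17 types, 13 had Cdkn2a UMIs at day 10 and none at 48 h, the thin limb included. In 8 types the groups did not overlap, with day 10 higher. The cells labelled TEC, for example, had 25 UMIs at day 10 and 0 at 48 h. In the thin limb 132 of 419 day 10 cells had a Cdkn2a UMI, against 0 of 186 cells at 48 h. The latter allows a share of cells with a UMI of up to 1.61%. Cells without a UMI can hold the transcript, and the 48 h cells were shallower. Thinned to 1000 UMIs the mean shares were 3.83 ± 0.64% at day 10 and 0% at 48 h; in cluster 5 at day 10 that share was 0.0385%. The thin limb was 2.76% of the day 10 cells and held 471 of 677, or 69.6%, of their Cdkn2a UMIs; at 48 h 22 of the 27 Cdkn2a UMIs lay in macrophage-like cluster 0.

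Cdkn1a had 344, 310 and 284 CPM in the day 10 thin limbs and 88.1 and 85.5 CPM in those of 48 h. The groups did not overlap, as for 22.4% of tested genes in that direction, and each was tight. The log2 fold change was 1.80 (SE 0.16, QL test adjusted p = 0.000495), and the thinned share of positive cells was 21.0 ± 2.55% at day 10 against 7.24 ± 2.34% at 48 h. Unthinned, 312 of 419 day 10 cells and 76 of 186 48 h cells were positive.

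Cdkn2b, the neighbour of Cdkn2a and a known target of TGF-beta signalling, had 117, 93.9 and 102 CPM at day 10 and 49.0 and 26.8 CPM at 48 h. The groups again did not overlap (log2 fold change 1.39, SE 0.24, QL test adjusted p = 0.0140). This call was lost without mouse 2 (adjusted p = 0.0707) and with cells thinned to 1000 UMIs and equal cell numbers together (log2 fold change 1.34, SE 0.56, adjusted p = 0.278), where Cdkn2a had too few counts to be tested. The other members gave no call there: Cdkn1b had 51.3, 66.2 and 57.8 CPM at day 10 and 51.3 and 67.4 CPM at 48 h (log2 fold change -0.06, adjusted p = 0.897). Cdkn1c averaged 7.60 ± 2.82 CPM at day 10 and 2.82 ± 3.18 CPM at 48 h, with overlap (log2 fold change 1.49, SE 0.69, QL test adjusted p = 0.274). Cdkn2c had too few counts to be tested.

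**Figure D2:**
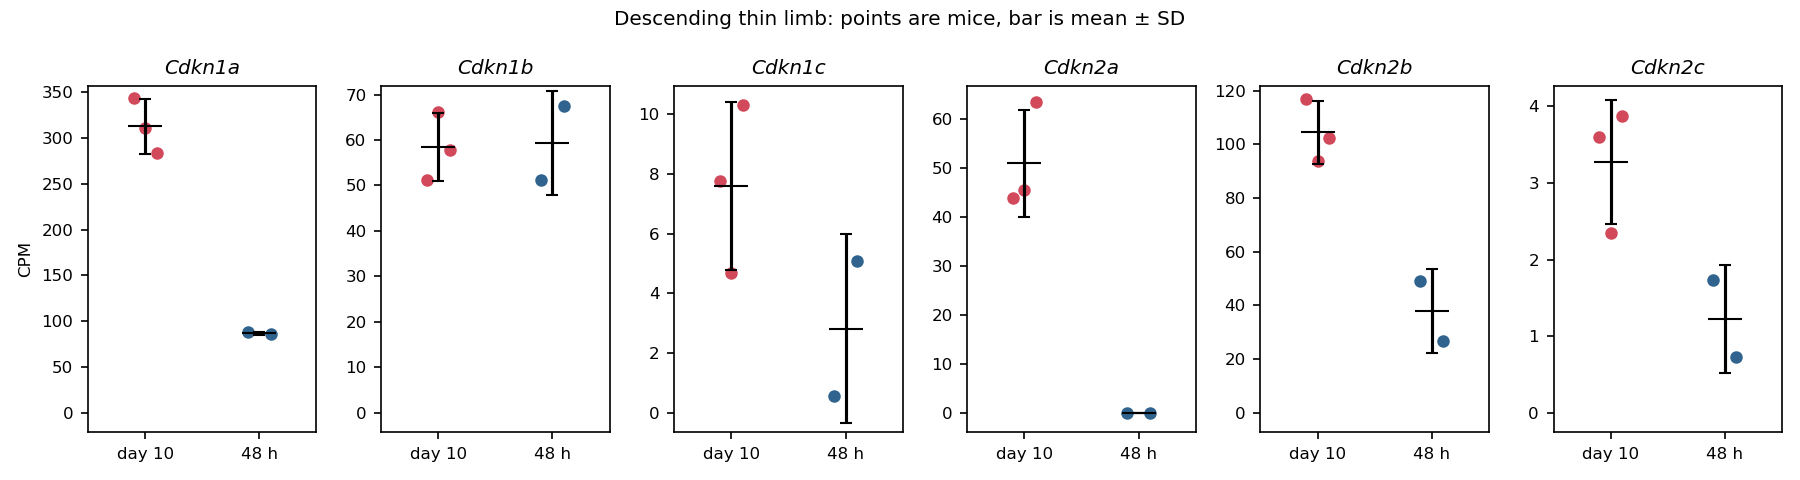
CPM of the 6 inhibitors in the descending thin limb, day 10 left and 48 h right, each point 1 mouse with the mean and SD in black (n = 3 and 2). Cdkn1a, Cdkn2a and Cdkn2b lie higher at day 10 without overlap, and Cdkn1b averages near 60 CPM in both groups.

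Within the day 10 thin limb the transcripts met in the same cells. Cells with a Cdkn2a UMI numbered 54, 30 and 48 in mice 3, 4 and 5, with up to 13, 18 and 26 UMIs in a cell. In them Cdkn1a reached 514, 525 and 427 CPM, against 214, 206 and 206 CPM in the thin limb cells without Cdkn2a. Cdkn2b reached 169, 168 and 156 CPM in the Cdkn2a-positive cells, against 77.6, 58.1 and 73.1 CPM in the others. Both were higher in the positive cells of 3 of 3 mice, and Cdkn1b was not (51.3, 58.7 and 47.8 CPM against 51.3, 69.8 and 63.2 CPM). The positive cells were deeper, with a median of 27650.5, 29133.5 and 19960 UMIs against 19491, 19765 and 18438. Thinned shares of Cdkn1a were 32.7, 36.2 and 31.7% in the positive cells against 18.6, 12.4 and 15.8% in the others. Choosing cells by a Cdkn2a UMI favours deeper cells, which thinning afterwards does not undo. Doublets were not called. The part of depth and of doublets in these differences was not tested.

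The Cdkn2a-positive cells carried less of the water channel Aqp1, a marker of the descending thin limb: at most 120 CPM in any of the 3 mice, against 381, 879 and 325 CPM in the negative cells. The markers Fst (442, 254 and 83.6 CPM against 751, 769 and 507 CPM) and Bst1 (361, 514 and 300 CPM against 412, 720 and 416 CPM) were also lower in the positive cells of 3 of 3 mice. In the whole label Aqp1 had 246, 631 and 215 CPM at day 10 and 1169 and 1254 CPM at 48 h, and the urea transporter Slc14a2 637, 329 and 527 CPM at day 10 and 4076 and 2384 CPM at 48 h. Fst went the other way without overlap, with 617, 601 and 358 CPM at day 10 and 353 and 288 CPM at 48 h. Bst1 overlapped, with 390, 653 and 375 CPM at day 10 and 776 and 471 CPM at 48 h. All 4 markers of the segment (Aqp1, Slc14a2, Bst1, Fst) were detected, and their sum was 1475 to 2214 CPM at day 10 and 4397 to 6374 CPM at 48 h.

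RNA of other cell types also differed between the times in this label. The 7 macrophage markers, all detected, summed to 243 to 312 CPM at day 10 and 37.4 to 40.6 CPM at 48 h, most of it Apoe at day 10 (181 to 239 CPM, against 10.1 to 16.1 CPM at 48 h). The 4 thick ascending limb markers summed to 61.1 to 135 CPM at day 10 and 493 to 734 CPM at 48 h, and the 5 red blood cell markers to 0.391 to 15.0 CPM and 956 to 1978 CPM. Median depth was 18756 to 24346.5 UMIs per cell at day 10 and 11228 to 15946 at 48 h. The part of these in the result was not tested.

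The label was then split by Aqp1, an alternative added after the data were seen. In cells with no Aqp1 UMI (94, 62 and 118 at day 10, 47 and 41 at 48 h) Cdkn1a had 413, 428 and 323 CPM at day 10 and 61.1 and 125 CPM at 48 h (log2 fold change 2.07, SE 0.27, QL test adjusted p = 0.00392). In cells with an Aqp1 UMI (54, 52 and 39 at day 10, 43 and 55 at 48 h) it had 230, 159 and 168 CPM at day 10 and 117 and 54.3 CPM at 48 h, which did not pass (log2 fold change 1.06, SE 0.30, adjusted p = 0.112). The groups did not overlap in either set for Cdkn1a. The shares of all genes that passed or did not overlap were not counted in these sets. In the whole label 5.12% of genes passed and 22.4% were higher at day 10 without overlap. Cdkn2a had 63.4, 76.4 and 79.5 CPM in the day 10 cells without Aqp1 and 11.7, 5.39 and 16.6 CPM in those with it, and was at 0 in both sets at 48 h. In the cells without Aqp1, Cdkn2b had 341, 194 and 259 UMIs at day 10 and 49 and 21 UMIs at 48 h. Its CPM did not overlap, with up to 152 CPM at day 10 and up to 54.4 CPM at 48 h, and it passed (QL test adjusted p = 0.0124). In those with it, the levels were 59.2, 41.3 and 73.9 CPM at day 10 and 43.1 and 20.7 CPM at 48 h, which overlapped and did not pass (adjusted p = 0.299). The difference between the sets was not tested.

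**Figure D3:**
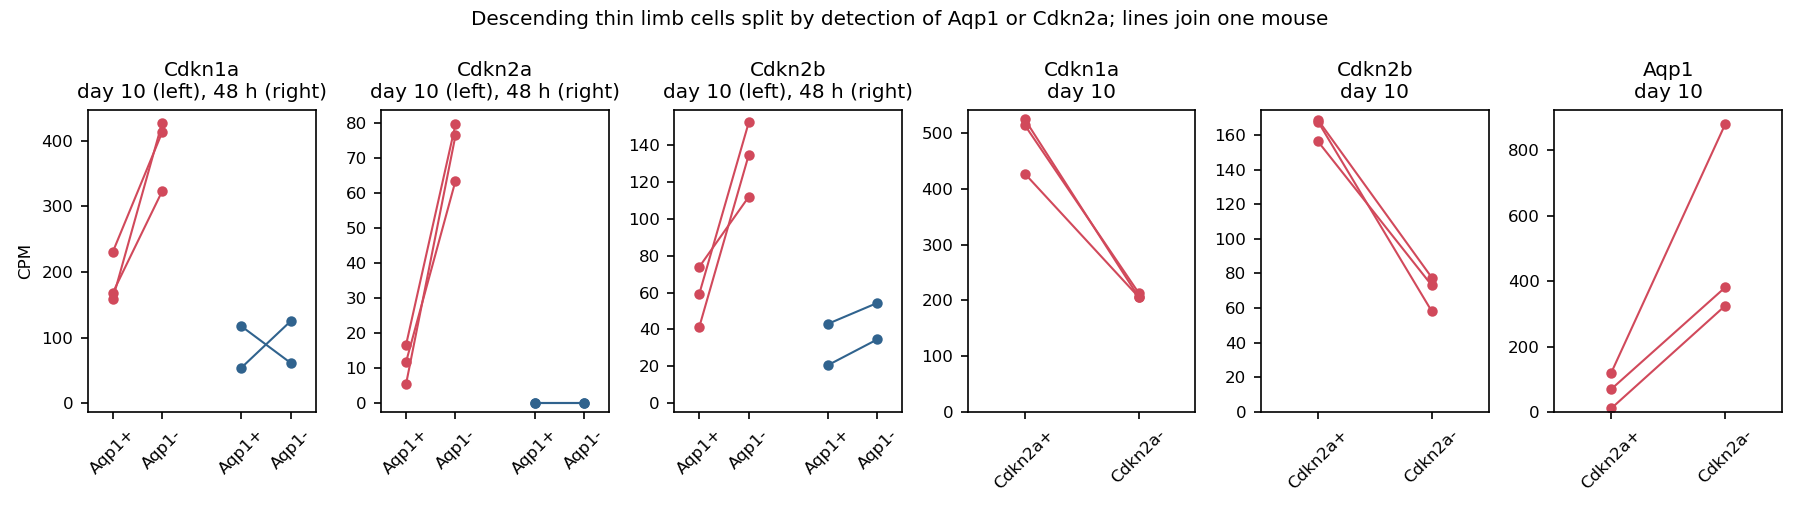
CPM in descending thin limb cells, lines joining the cells of 1 mouse: the 3 left panels split cells by an Aqp1 UMI, with day 10 left of 48 h, and the 3 right panels split day 10 cells by a Cdkn2a UMI. At day 10 the Aqp1-negative cells are higher in all 3 inhibitors, and Cdkn2a-positive cells have more Cdkn1a and Cdkn2b and less Aqp1 in 3 of 3 mice.

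Genes around the inhibitors were counted from pathway lists in the same thin limb test. Of 17 p53 targets other than Cdkn1a with enough counts, 7 rose and 0 fell, with a median log2 fold change of 1.06 against 0.00 over all tested genes, beside 2.77% of all genes that rose. Pmaip1, a death-promoting BH3 protein, had 25.8, 46.6 and 49.7 CPM at day 10 and 2.88 and 0 CPM at 48 h (log2 fold change 4.57, QL test adjusted p = 0.00539). Phlda3, an inhibitor of Akt signalling, had 92.9, 94.3 and 97.8 CPM at day 10 and 13.8 and 18.8 CPM at 48 h (2.51, adjusted p = 0.000242). Bbc3, another BH3 protein, averaged 19.7 ± 4.53 CPM at day 10 and 5.14 ± 4.01 CPM at 48 h (1.96, adjusted p = 0.0366). All 3 stood higher in every day 10 mouse than in either 48 h mouse, as did 22.4% of tested genes. They were named for the largest called changes in this same test, so this adds no separate evidence. Among senescence-associated secreted factors, the monocyte attractant Ccl2 rose (225, 41.5 and 165 CPM at day 10, 7.49 and 5.07 CPM at 48 h, log2 fold change 4.43, QL test adjusted p = 0.0141), as did Tgfb1 (36.3, 49.3 and 42.6 CPM at day 10, 21.9 and 18.1 CPM at 48 h, 1.03, adjusted p = 0.0336). Among 8 cyclins and their kinases only Cdk6, a target of the INK4 proteins, rose (141 ± 19.9 CPM at day 10, 71.1 ± 1.20 at 48 h, log2 fold change 0.94, adjusted p = 0.0135). None of 12 genes of the Rb and E2F list and none of 9 repressors of the INK4 locus passed in either direction.

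The thin limb effect was set against other nephron segments in fits with mouse as a block, pairs added after the data were seen. The time effect of Cdkn1a exceeded that of the merged distal tubule by 1.92 on the log2 scale (SE 0.21, QL test adjusted p = 0.00400, 1.98% of genes passing). In the merged distal tubule Cdkn1a had a log2 fold change of -0.11 (SE 0.28), with overlap. Against the thick ascending limb, the difference was 0.73 (SE 0.22) and just missed the threshold (adjusted p = 0.0520), whereas that of Cdkn2b, 0.81 (SE 0.22), passed (adjusted p = 0.0325, 9.39% of genes passing) but did not without mouse 1, 2, 4 or 5 (adjusted p 0.0735 to 0.134). For Cdkn2a no difference could be fitted against that segment, since both types had no UMI at 48 h. Against the merged distal tubule neither Cdkn2a (8.42, SE 4.26, adjusted p = 0.405) nor Cdkn2b (1.35, SE 0.32, adjusted p = 0.0651) passed.

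In the thick ascending limb, the salt-reabsorbing segment that follows, Cdkn1c and Cdkn2a rose from low levels. Cdkn1c had 6.24, 5.43 and 8.30 CPM at day 10 and 1.70 and 1.96 CPM at 48 h, with no overlap (log2 fold change 1.52, SE 0.31, QL test adjusted p = 0.0272). This call was lost without mouse 1, 2, 3 or 5 (adjusted p 0.0596 to 0.124). Cdkn2a had 2.81, 2.07 and 2.40 CPM at day 10 from 44 UMIs and none at 48 h. This was at least 19.2-fold higher against a floor of 3 counts over the group. Its QL test call (adjusted p = 0.0105, and 0.0615 without mouse 5) adds no support, as only day 10 counts brought it past the filter. Cdkn1a had 88.3, 78.8 and 60.7 CPM at day 10 and 39.0 and 18.4 CPM at 48 h and missed the threshold (log2 fold change 1.02, SE 0.31, adjusted p = 0.0765), passing without mouse 1 (0.00656). Non-overlap upward is common here, at 51.2% of genes. Median mitochondrial UMIs of these cells were 6.89 to 8.70% at day 10 and 21.8 to 23.0% at 48 h. With mitochondrial genes left out the Cdkn1c and Cdkn2a calls held. Leaving these genes out changes the totals but not the cells, so the part of this difference between the cells was not tested. Macrophage markers summed to 750 to 944 CPM in this label at day 10 and 31.2 to 38.1 CPM at 48 h, with 7 of 7 detected, and their part was not tested.

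Of 19 p53 targets tested in the thick ascending limb 3 rose and 0 fell, beside 4.98% of all genes that rose, and the list median was 0.14 against 0.00 for all genes: Phlda3 (log2 fold change 2.79), Plk2 (2.00) and Bbc3 (0.93). Of 9 repressors of the INK4 locus 1 rose, the polycomb gene Ezh2 (0.59, QL test adjusted p = 0.0378), and of 6 imprinted neighbours of Cdkn1c 1 rose, Phlda2 (1.86, adjusted p = 0.0431). Of either list 0 fell. The share of all genes that rose is again 4.98%.

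**Figure D4:**
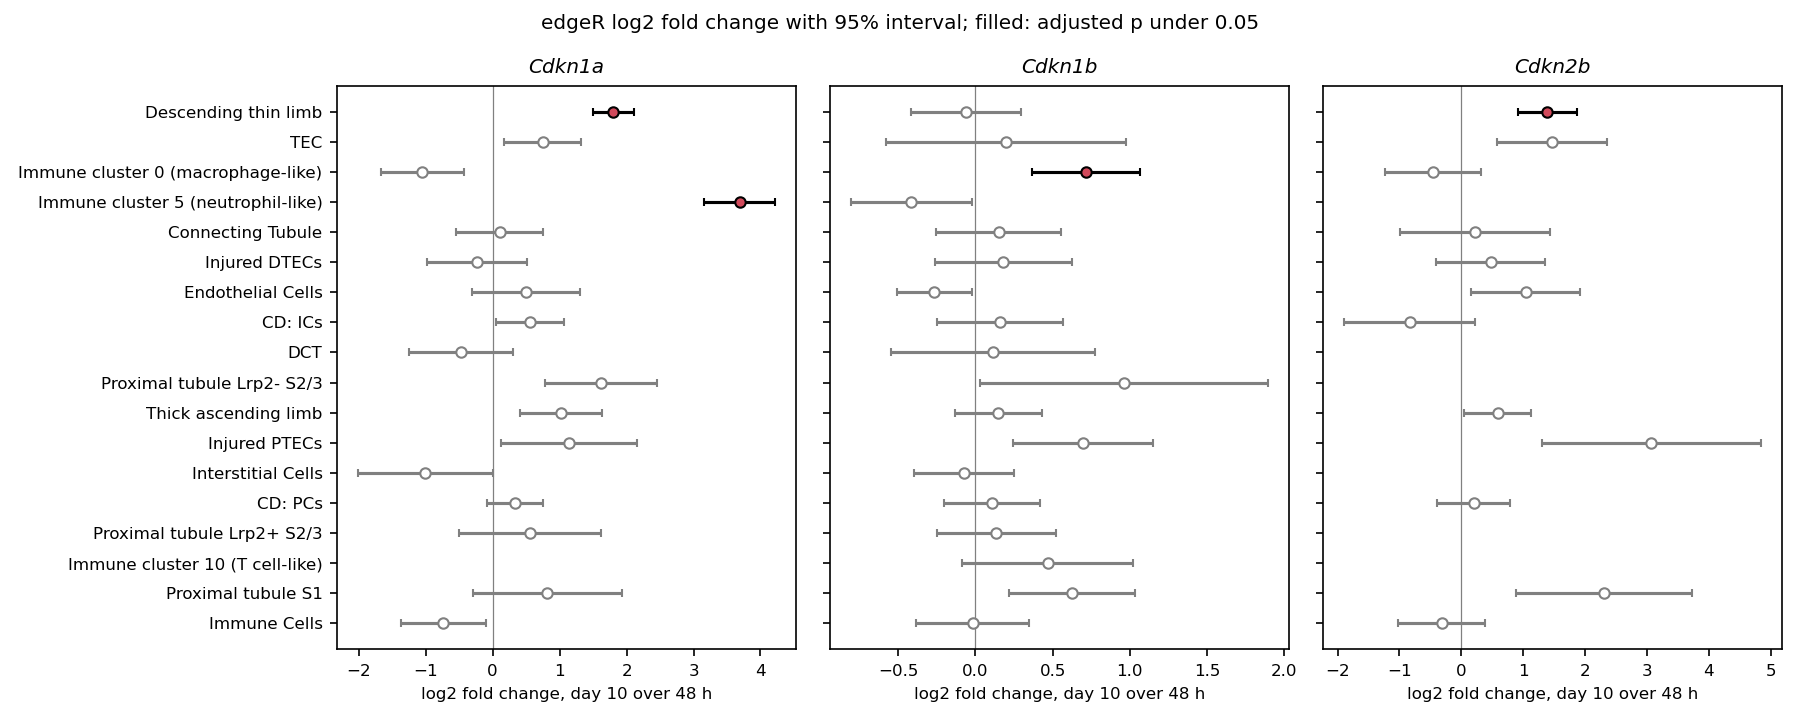
Log2 fold change of day 10 over 48 h for Cdkn1a, Cdkn1b and Cdkn2b in each type with enough counts (edgeR), with bars of the 95% interval; filled points passed at an adjusted p under 0.05, and types with no 48 h UMI are left out. Cdkn1a passes in the descending thin limb (1.80) and cluster 5 (3.69) and lies at -1.05 in cluster 0.

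The time effect on Cdkn1a differed between the immune clusters. In neutrophil-like cluster 5 Cdkn1a had 199, 160 and 164 CPM at day 10 and 12.6 and 7.66 CPM at 48 h, while in macrophage-like cluster 0 it had 89.0, 98.9 and 58.8 CPM at day 10 and 234 and 122 CPM at 48 h. The groups did not overlap in either cluster, with day 10 above in cluster 5, as for 52.5% of its genes, and below in cluster 0, as for 29.9%. Thinned shares of positive cells were 12.3 ± 0.60% at day 10 against 1.06 ± 0.42% at 48 h in cluster 5, and 6.71 ± 2.16% against 13.2 ± 4.84% in cluster 0. The time effect passed in cluster 5 (log2 fold change 3.69, SE 0.27, QL test adjusted p = 3.41e-05). That in cluster 0 did not pass by itself (log2 fold change -1.05, SE 0.32, adjusted p = 0.0573; 0.0253 without mouse 4), but the difference of the time effects did: cluster 5 exceeded cluster 0 by 4.53 (SE 0.31, adjusted p = 3.20e-11, 16.4% of genes passing).

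Neutrophil markers summed to 55534 to 63190 CPM in cluster 5 at day 10 and to 162006 to 215630 CPM at 48 h, all 5 detected. Macrophage markers in it were 1716 to 3169 CPM at day 10 and 306 to 358 CPM at 48 h, with 7 of 7 detected. The 5 red blood cell markers, all detected in the cluster, summed to 0 to 104 CPM at day 10 and 6144 to 6807 CPM at 48 h, and the part of both in the Cdkn1a change was not tested. The day 10 Cdkn1a level of cluster 5 was above that of the macrophage-like cluster in 3 of 3 mice. Cluster 5 had 4 of 13 other p53 targets up, beside 7.79% of all genes that rose (the 3 largest were Bbc3 at 1.91, Bax at 1.74 and Aen at 1.64) and 1 down (Sesn2, -0.71), beside 10.7% that fell, with a list median of 0.03 against 0.04 for all genes.

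Cdkn1b rose in cluster 0, with 61.3, 42.3 and 56.7 CPM at day 10 and 32.6 and 34.6 CPM at 48 h. The groups did not overlap, as for 28.0% of genes in that direction (log2 fold change 0.72, SE 0.18, QL test adjusted p = 0.0344), and the call was lost without mouse 1, 2, 3 or 5 (adjusted p 0.0641 to 0.174). In cluster 5 it had 221, 153 and 209 CPM at day 10 and 205 and 169 CPM at 48 h, which overlapped, and the time effects of the clusters differed by -1.30 (SE 0.23, adjusted p = 0.000164). Cdkn2c also rose in cluster 0 (14.2, 14.9 and 18.8 CPM at day 10, 11.6 and 7.35 CPM at 48 h, log2 fold change 0.82, SE 0.23, adjusted p = 0.0492) and in the whole immune label (0.96, SE 0.25, adjusted p = 0.0423), which cluster 0 dominates. Both Cdkn2c calls were lost without mouse 1, 2, 3 or 5 (adjusted p 0.0570 to 0.236).

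Some of the cyclins and kinases that the inhibitors act on fell in the same macrophage-like cells. Of 14 cyclins and kinases 0 rose and 7 fell, beside 12.5% of all genes that fell, and the list median was -0.79 against 0.07 for all genes. The largest falls were Ccne2 (log2 fold change -2.19, 2.35 ± 0.61 CPM at day 10 and 11.2 ± 1.39 at 48 h), Ccnd1 (-2.15; 144, 45.8 and 86.1 CPM at day 10, 502 and 345 CPM at 48 h) and Ccne1 (-1.83), cyclins of the step from G1 into S phase. Of 15 Rb and E2F genes 6 fell, led by E2f2 (-1.68), and 2 rose, beside 11.5% of all genes that rose, Tfdp2 (1.23) and the growth-suppressing pocket protein Rbl2 (0.71). The INK4 family member Cdkn2d (p19) fell by 0.80 on the log2 scale (21.5 ± 2.28 CPM at day 10, 39.0 ± 11.2 at 48 h, adjusted p = 0.0279). Macrophage markers of this cluster summed to 49236 to 54284 CPM at day 10 and 7324 to 10661 CPM at 48 h, and neutrophil markers to 50.3 to 95.9 and 1414 to 3253 CPM; the part of this in these changes was not tested.

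In the proximal tubule, the main site of ischemic damage, 0 of 6 members passed the QL test when its 5 labels were merged, beside 3.22% of all genes. The DESeq2 Wald test called 1 of them, Cdkn2b. Cdkn2b had 3.53, 6.24 and 2.43 CPM at day 10 and 0.806 and 0.599 CPM at 48 h, without overlap (log2 fold change 2.17, SE 0.51, QL test adjusted p = 0.0719; 0.00533 with DESeq2). Upward non-overlap was seen for 43.1% of genes. In the label of injured proximal tubule cells it had 5.20, 22.8 and 3.38 CPM at day 10 and 0.758 and 0.613 CPM at 48 h (3.07, SE 0.91, adjusted p = 0.0808). Cdkn1a had 41.9, 45.2 and 19.3 CPM at day 10 and 17.4 and 16.5 CPM at 48 h in the merged cells and did not pass (adjusted p = 0.236). Its time effect exceeded that of cluster 0 by 1.67 (SE 0.28, QL test adjusted p = 0.0225, 6.95% of genes passing), which did not pass without mouse 3 or 5 (0.0753 and 0.0570). For Cdkn1c the difference of the merged proximal tubule from the thick ascending limb was -1.70 (SE 0.38, adjusted p = 0.0343, 7.38% of genes passing), and it did not pass without mouse 1, 2, 3 or 5 (0.0719 to 0.125).

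Cells labelled as cycling proximal tubule showed opposite moves of the INK4 members, tested with the 10-cell minimum that was added after the data were seen (18 to 35 cells at day 10, 86 and 117 at 48 h). Cdkn2b had 23.4, 15.0 and 22.3 CPM at day 10 and 1.45 and 1.32 CPM at 48 h, where it had 2 UMIs in all. The groups did not overlap, as for 29.7% of genes in that direction. The summed CPM were 15.6-fold higher at day 10 (95% exact interval 3.93 to 136, counting error only; QL test adjusted p = 0.00493, 0.0739 without mouse 2). Cdkn2c had 40.5, 29.9 and 96.0 CPM at day 10 and 86.7 and 166 CPM at 48 h, with overlap (log2 fold change -1.26, SE 0.39, QL test adjusted p = 0.0331). This call was lost without mouse 2, 3 or 4 and with the DESeq2 Wald test. It was also lost with the cells of the top 5% of UMIs left out. In this label 20% of genes passed.

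To compare dividing with other cells, cells with at least 5 of 25 G2/M genes detected were set against the rest. This could be done in every mouse for the merged proximal tubule and cluster 0. The merged proximal tubule pools 5 labels, the cycling one among them, and their levels differ. Mean day 10 Cdkn1a was 15.8 CPM in S1, 18.0 in Lrp2-positive S2/3 and 71.1 in injured cells. It was 106 CPM in Lrp2-negative S2/3 and 122 in the cycling label. The part of the labels in the differences was not tested. In the proximal tubule Cdkn1a was 134, 145 and 59.4 CPM in the cycling cells of the day 10 mice, against 39.5, 40.6 and 17.9 CPM in their other cells. At 48 h it was 40.3 and 29.3 CPM in cycling cells against 13.4 and 12.9 CPM in the others. Cycling cells were thus higher in 5 of 5 mice, as they were for Cdkn1b (50.9 ± 28.4 against 26.6 ± 8.55 CPM), and in 4 of 5 for Cdkn2c (56.9 ± 33.7 against 19.5 ± 5.94 CPM). Cdkn2b had 22.0, 27.6 and 19.3 CPM in cycling cells against 3.04, 5.25 and 1.81 CPM at day 10, and 0.34 and 0.39 against 0.89 and 0.66 CPM at 48 h. The 48 h cycling values rest on 1 UMI in each mouse, too few to give a direction.

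In cluster 0 Cdkn2c was higher in cycling cells in 5 of 5 mice (53.4, 40.0 and 73.9 CPM in cycling cells against 10.6, 13.5 and 13.3 CPM in the others at day 10, and 34.3 and 21.3 against 5.04 and 4.39 CPM at 48 h), whereas Cdkn1a was higher in 1 of 5 (110 ± 63.9 against 123 ± 69.7 CPM) and Cdkn1b in 2 of 5. Cycling macrophage-like cells were deeper in every mouse (medians of 19952 to 31299 against 10667 to 15393.5 UMIs), while cycling proximal tubule cells were shallower than the others in mice 3 and 4. Between 5 and 33 proximal tubule cells and 18 and 35 cluster 0 cells of a mouse were 1 gene short of the limit, and no test was made. The G2/M list itself had 0 genes up and 11 of 25 down at day 10 in the merged proximal tubule, among them Aurkb (log2 fold change -2.18), Kif11 (-2.16) and Mki67 (-2.14), beside 1.94% of all genes that fell.

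**Figure D5:**
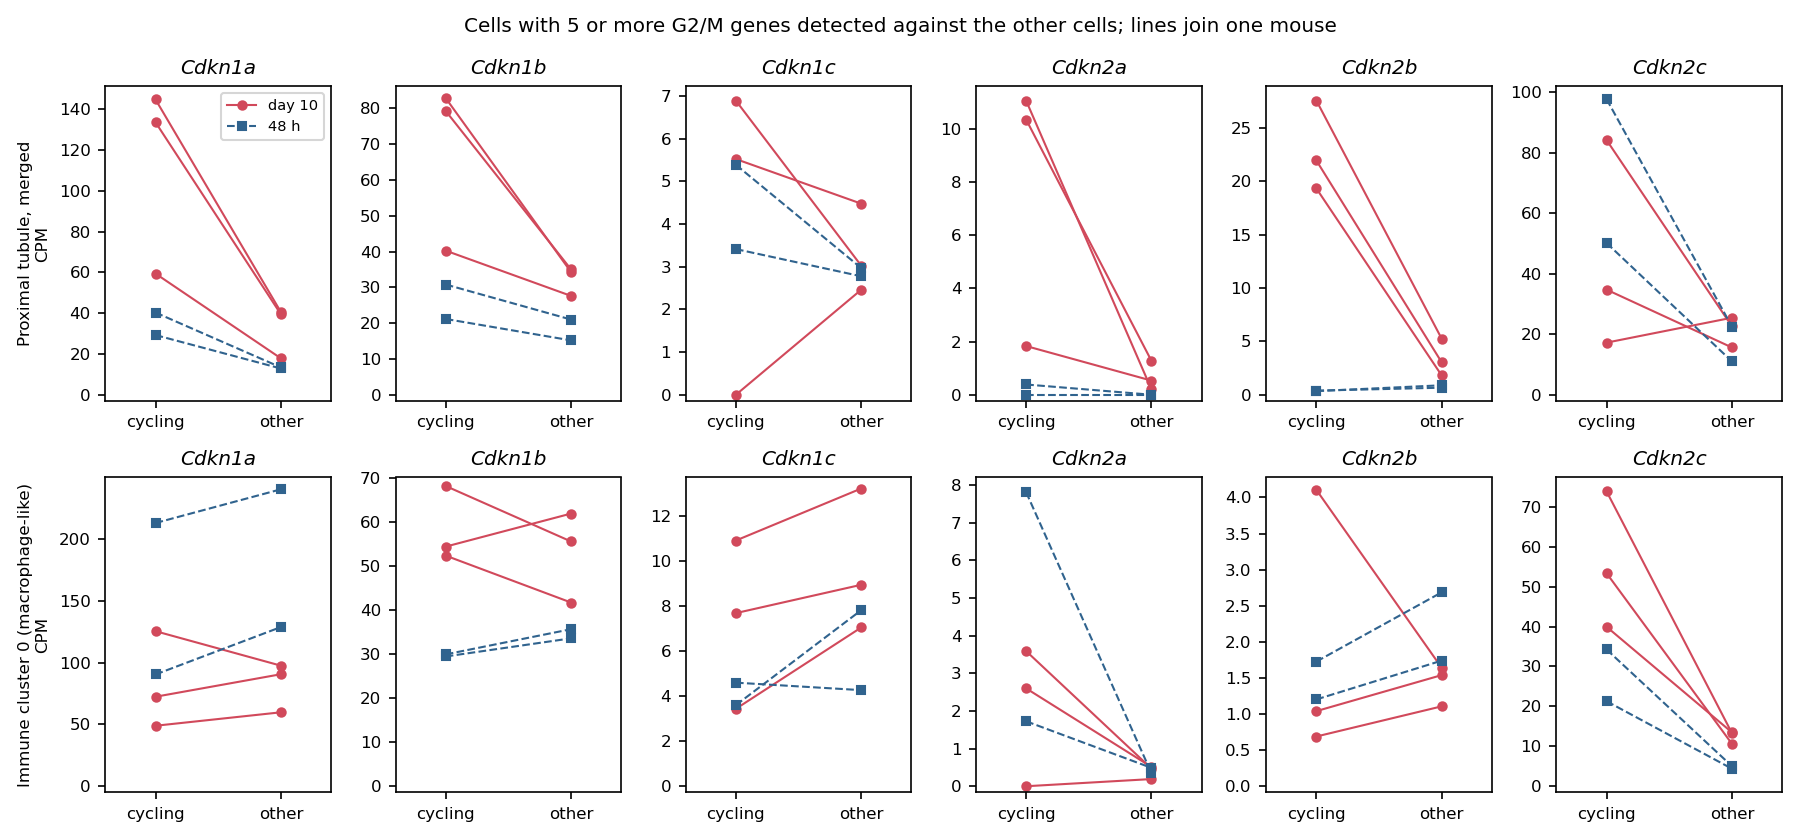
CPM of each inhibitor in cells with at least 5 G2/M genes detected and in the other cells of the merged proximal tubule (top) and macrophage-like cluster 0 (bottom), lines joining 1 mouse, solid for day 10 and dashed for 48 h. Cdkn1a and Cdkn1b are higher in cycling proximal tubule cells of 5 mice, Cdkn2b in those of the 3 day 10 mice (with 1 UMI in each 48 h mouse), and Cdkn2c in cycling cluster 0 cells of 5 mice.

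Endothelial and interstitial cells, where 0.328% and 7.44% of all genes passed, were the remaining types with high Cdkn1c. In endothelial cells Cdkn1c had 39.3, 60.7 and 46.5 CPM at day 10 and 32.0 and 30.5 CPM at 48 h, without overlap, as for 23.7% of genes in that direction, and did not pass (QL test adjusted p = 0.299). Cdkn1a had 146, 86.2 and 79.9 CPM at day 10 and 101 and 36.2 CPM at 48 h in endothelial cells, and in interstitial cells 49.1, 17.0 and 40.9 CPM at day 10 and 110 and 31.4 CPM at 48 h. The groups overlapped in both types. The time effect of interstitial cells differed from that of endothelial cells by -1.47 (SE 0.34, QL test adjusted p = 0.0391, 3.29% of genes passing), which did not pass without mouse 1, 2 or 3 (adjusted p 0.0612 to 0.442). Against cluster 0, the time effect of endothelial cells differed by 1.59 for Cdkn1a (SE 0.27, adjusted p = 0.00981, 13.7% of genes passing; 0.0926 without mouse 2) and by -1.02 for Cdkn1b (SE 0.19, QL test adjusted p = 0.0133), the second lost without mouse 1, 2, 3 or 5 (0.0514 to 0.101). Interstitial Cdkn2b had 9.04, 44.9 and 6.73 CPM at day 10 and no UMI at 48 h, at least 9.18-fold higher with a floor of 3 counts over the group, and the QL test did not pass (adjusted p = 0.167).

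The genes with the levels most like each member across the 17 types, among 12220 genes by Pearson r of log2(mean CPM + 1), were Wnt8b (0.89), Bcat1 (0.89) and Tbpl2 (0.87) for Cdkn2a and Gprc5a (0.91), Pak3 (0.90) and Tpbg (0.90) for Cdkn2b. For Cdkn1a they were Mtpn (0.90), Anxa3 (0.89) and Maea (0.87), and for Cdkn2c Map2k6 (0.82), Psat1 (0.80) and Rnaseh2b (0.80). Cdkn1b was most like Ncbp3 (0.96), Safb (0.94) and Nufip2 (0.94), and Cdkn1c, with podocytes not among the types, like Mgp (0.96), Gata6 (0.95) and Ccdc3 (0.94). By Spearman rho Rnaseh2b stayed among the 3 nearest of its member. Nufip2 tied with Phip, the last of the 3 for Cdkn1b, at a rho of 0.94.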

How the data were processed

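Kidney cells of 5 mice after IRI, 3 at day 10 and 2 at 48 h, were sequenced with 10x Single Cell 3′ chemistry v3.1, per the labels. The authors deposited counts (UMIs per gene and cell) on mm10 and a table of cell type and cluster for the cells they kept, with the percent of mitochondrial UMIs per cell, as deposited; the submitters' processing notes name Cell Ranger 6.0.2 and Seurat 4.0.5, while the matrix headers give Cell Ranger 6.0.0. The steps by which the authors filtered cells or treated doublets are not given in the sources used here.

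UMIs of kept cells were summed per mouse and type. Time was tested with edgeR 4.0.16 in R 4.3.3 (filterByExpr, TMM, quasi-likelihood F test, Benjamini-Hochberg over all genes of a type, threshold 0.05), in types with at least 20 cells in every mouse; the script was tested on simulated counts. Differences between types used an interaction term with mouse as a block. DESeq2 1.42.0, limma 3.58.1, other filters, thinning and leaving out each mouse were alternatives. Shares of positive cells are expected values after thinning every cell to 1000 UMIs. The p-values measure only the spread between these mice; a two-sided exact permutation test of 3 against 2 cannot go below 0.2. Intervals (95%, exact) and floors of 3 counts cover counting error only. The groups share no replicate number. Genes named from a list are up to 3 called in each direction per type, and likeness names the 3 highest r. The members and lists were chosen with earlier results of these data known. Some marker and list genes, and the counts and sums that include them, are not reported here.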

Additional observations from a re-analysis of the deposited data

Results flagged for a closer look

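Time effects of a member that differed between cell types were picked out by the test of the difference itself (edgeR's quasi-likelihood test of the interaction, log2 scale, Benjamini-Hochberg adjusted). Of 32 tests in the 6 planned pairs of types, 7 passed. Cdkn1a differed by 4.53 (SE 0.31, adjusted p = 3.20e-11) and Cdkn1b by -1.30 (SE 0.23, adjusted p = 0.000164) between cluster 5 and cluster 0, where 16.4% of genes passed. Against the same cluster 0, Cdkn1a differed by 1.67 in the merged proximal tubule (SE 0.28, adjusted p = 0.0225, 6.95% of genes passing) and by 1.59 in endothelial cells (SE 0.27, adjusted p = 0.00981, 13.7% passing), and Cdkn1b by -1.02 in endothelial cells (SE 0.19, adjusted p = 0.0133). The endothelial difference of Cdkn1a did not pass without mouse 2 (0.0926), and that of Cdkn1b not without mouse 1, 2, 3 or 5 (0.0514 to 0.101). These share the cluster 0 libraries. Cdkn1c differed by -1.70 between the merged proximal tubule and the thick ascending limb (SE 0.38, adjusted p = 0.0343, 7.38% passing). Cdkn1a differed by -1.47 between interstitial and endothelial cells (SE 0.34, adjusted p = 0.0391). In the added pairs of the descending thin limb, Cdkn2b differed by 0.81 from the thick ascending limb (SE 0.22, adjusted p = 0.0325) and Cdkn1a by 1.92 from the merged distal tubule (SE 0.21, adjusted p = 0.00400).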

How the results depend on the processing

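No paired analysis was possible because the day 10 and 48 h mice share no replicate number. Of the 9 member calls per type, 21 were made with no filter on low counts (of 107 tests), 3 with cells thinned to 1000 UMIs and equal cell numbers (of 20 tests), and 4 to 12 with 1 mouse left out, the fewest without mouse 5 and the most without mouse 4. In the merged tubules 0 calls became 1 with the DESeq2 Wald test and 2 with no filter, and stayed 0 with each mouse left out. The 7 differences between types became 3 to 7 with 1 mouse left out. Of the 18 genes most like a member, 1 was shared with Spearman rho, not counting Nufip2, which tied for the last place. Thinning and equal cell numbers both lower the counts, and their parts in the fewer tests were not separated. Cdkn1a in the descending thin limb and in cluster 5 passed in 12 of 12 alternatives. Cdkn2a in the thin limb passed in the 11 that could be fitted. With no UMI at 48 h its direction was fixed beforehand, so this adds no support. The Aqp1 split of the thin limb is not counted among these alternatives. In that split, Cdkn1a did not pass in the cells with an Aqp1 UMI. With 3 and 2 mice per group, calls near the threshold depend on single mice. No result listed here reversed its direction.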
